A study of Mus musculus with 17 samples.

Results

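Autophagy is the route by which a cell encloses part of its own cytoplasm in a double membrane and delivers it to lysosomes, where acid hydrolases break it down. It is started by the ULK1 kinase complex, which the mTORC1 kinase holds in check. Rapamycin, an inhibitor of mTORC1, is therefore widely used to switch autophagy on, and mTORC1 also keeps the transcription factors TFEB and TFE3, which drive many lysosomal genes, out of the nucleus. A mature oocyte, held at the second meiotic metaphase (MII), makes little new RNA, so its transcripts are largely a store laid down during growth.

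The genes described here are 48 autophagy and lysosome genes of the mouse, given as a list and looked up by symbol among 24491 genes. All 48 were found in each of the 17 libraries. They comprise 5 genes of the ULK complex, 4 of the class III PI3-kinase complex, 5 of lipid transfer and PI3P binding, 7 of the ATG12 and ATG8 conjugation machinery, 5 ATG8 proteins, 3 cargo receptors, 2 MiT transcription factors, 5 lysosomal membrane proteins and 12 lysosomal lumen proteins.

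All libraries came from wild-type CD1 mice, an outbred stock. Rapamycin oocytes (n = 3 libraries) were taken at 48 weeks from females injected intraperitoneally with 2 mg/kg rapamycin for 40 weeks from week 8, aged oocytes (n = 2) from females of 48 weeks without it, and young oocytes (n = 2) from females of 4 weeks, with about 10 MII oocytes in each library. The 48-week females were primed with 10 IU of each gonadotropin and the 4-week females with 5 IU, so age and hormone dose cannot be told apart. Cumulus cells had been stripped with hyaluronidase. The other 10 libraries are hippocampus of adult female offspring of 40 to 44 weeks, 3 from rapamycin-treated aged mothers (rapamycin offspring), 3 from aged mothers (aged offspring) and 4 from young mothers (young offspring); the offspring themselves received no treatment that the labels record, and the labels do not tie an animal to a mother. Whether libraries of a group came from separate animals is stated only in part, so p-values measure only how far the libraries of a group differ, and some of that may be technical.

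Oocyte libraries held 3912163 to 8334873 counts and hippocampus libraries 16434398 to 20220617. Levels are CPM, the count scaled to the TMM-normalised library size, and CPM per kilobase of exon where genes are compared with each other. A floor of 3 counts was worth 0.349 to 0.809 CPM in oocytes. The 12 oocyte markers were all detected in the oocyte libraries and summed to 25700 to 32100 CPM in 6 of them, but to 3020 CPM in rapamycin oocyte 1. That library correlated with the others at r = 0.736 to 0.792 across genes and held 218 CPM of the cumulus and granulosa list, against 59.8 to 109 CPM in the other 6, so the counts of calls, the non-overlap counts between tissues and rapamycin groups, and the values it moves most are also given without it. In hippocampus all 10 neuronal markers were detected in each library, at 11500 to 14100 CPM in sum, and the oligodendrocyte list ranged from 2800 to 10300 CPM and the microglial list from 317 to 734 CPM, within groups as well as between them. In such bulk samples, fewer cells of a type and less RNA per cell cannot be told apart.

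Oocytes and hippocampus held the pathway in different proportions. The 7 conjugation genes summed to 139 to 403 CPM per kilobase in oocytes, against 89.6 to 112 in hippocampus. Lipid transfer genes summed to 4.04 to 14.1 in oocytes, against 61.0 to 86.3 in hippocampus, and ULK complex genes to 33.3 to 66.2, against 109 to 136. Members took 0.124% to 0.338% of oocyte counts and 0.704% to 0.77% of hippocampus counts. With the 7 oocyte libraries set against the 10 hippocampus libraries, 3 members lay wholly above hippocampus in oocytes, 30 wholly below and 15 overlapped. Among 15323 genes with a mean of at least 1 CPM in either tissue, 19.0% lay wholly above and 54.1% wholly below, against 6.25% and 62.5% of the members. The oocyte and hippocampus libraries were made with different kits, an amplified oligo-dT protocol for oocytes and a fragmented poly(A) protocol for hippocampus, so tissue and kit cannot be told apart and no test was made.

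**Figure D1:**
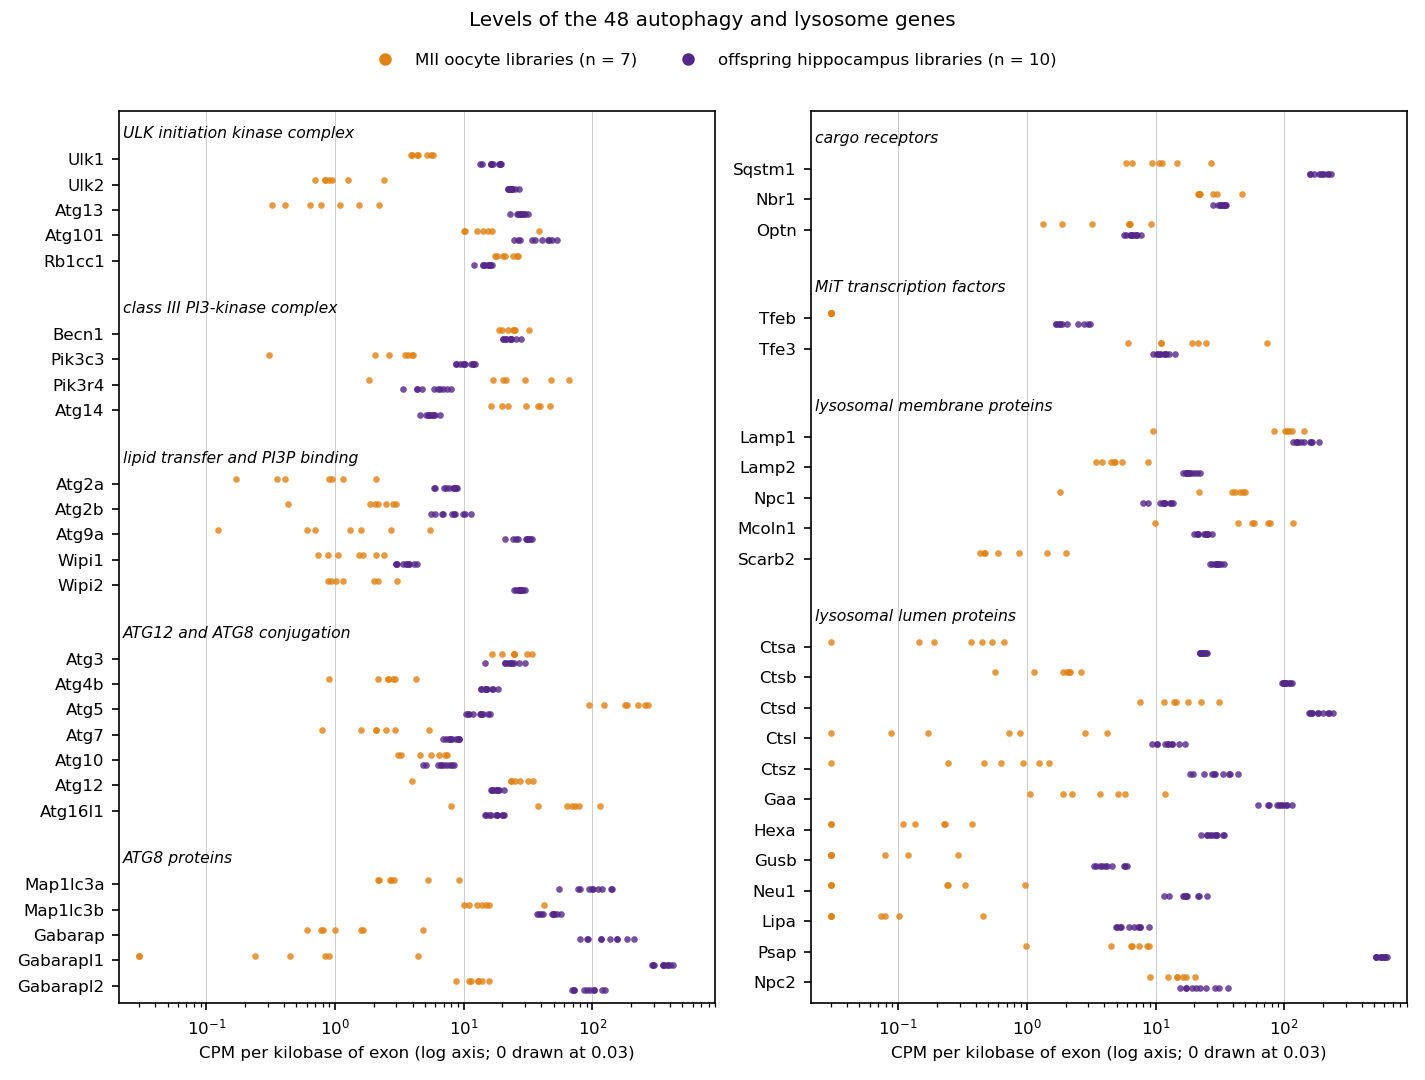
Level of each of the 48 genes in every library, in CPM per kilobase of exon on a log axis, grouped by role; orange points are the 7 MII oocyte libraries, purple points the 10 hippocampus libraries, and 0 is drawn at 0.03. Atg5, Atg14 and Rb1cc1 lie to the right of hippocampus in all 7 oocyte libraries, and most lysosomal lumen genes lie far to the left.

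Atg5, a component of the ATG12-ATG5 conjugate that directs ATG8 lipidation, had the highest median of the 48 genes in oocytes. It stood at 94.1 to 269 CPM per kilobase in oocytes (median 184), against 10.5 to 16.1 in hippocampus (median 13.5), where it ranked 33 of 48. Atg16l1, the scaffold of that conjugate, stood at 7.95 to 115 CPM per kilobase in oocytes (median 69.5), against 14.5 to 20.4 in hippocampus (median 17.8), with the lowest oocyte value in rapamycin oocyte 1. The ranges of Atg5 and of Lamp1, second in oocytes, overlapped, so their order is not fixed.

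Atg14, the subunit that targets the class III PI3-kinase to the forming autophagosome, stood at 16.2 to 46.7 CPM per kilobase in oocytes (median 30.3), against 4.58 to 6.52 in hippocampus (median 5.48). In the same complex, the catalytic subunit Pik3c3 stood at 0.306 to 4.03 in oocytes, against 8.63 to 12.3 in hippocampus, and Becn1 overlapped. Rb1cc1, which encodes the ULK scaffold FIP200, stood at 17.6 to 26.5 in oocytes (median 20.8), against 12.0 to 16.5 in hippocampus (median 15.6). Of the other ULK complex genes, Ulk1, Ulk2 and Atg13 lay below hippocampus and Atg101 overlapped. Atg13, the regulatory subunit, stood at 0.325 to 2.21 CPM per kilobase in oocytes, against 22.7 to 31.5 in hippocampus, and Ulk2 at 0.704 to 2.39, against 22.2 to 26.7.

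Without rapamycin oocyte 1, the members wholly above hippocampus numbered 8 (16.7%, against 23.4% of genes), with Atg12, Atg16l1, Mcoln1, Npc1 and Pik3r4 added to Atg5, Atg14 and Rb1cc1. Members wholly below in the same 6 libraries numbered 32 (66.7%, against 56.4% of genes). Pik3r4, the VPS15 subunit that activates the lipid kinase, stood at 16.9 to 66.1 CPM per kilobase in those 6 libraries, against 3.36 to 7.9 in hippocampus. Mcoln1, a calcium channel of the lysosomal membrane, stood at 43.6 to 118, against 19.9 to 27.7. Npc1, which exports cholesterol from lysosomes, stood at 21.7 to 49.9, against 7.95 to 13.7. None of the 12 lumen proteins lay wholly above hippocampus.

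Lysosomal lumen genes summed to 25.7 to 74.8 CPM per kilobase in oocytes (median 44.2), against 1020 to 1170 in hippocampus (median 1110). Psap, precursor of the sphingolipid activator proteins and the highest of the 48 in hippocampus, stood at 0.98 to 8.85 CPM per kilobase in oocytes, against 515 to 625 in hippocampus. Ctsb, a cysteine protease, stood at 0.567 to 2.65 in oocytes, against 96.3 to 114 in hippocampus. Gusb, Hexa, Neu1 and Lipa, a glucuronidase, a hexosaminidase subunit, a sialidase and the acid lipase, were at 0 in at least 2 of the 7 oocyte libraries each and did not pass the filter on low counts there.

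A few lumen genes were present in oocytes. Npc2, which hands cholesterol to NPC1, stood at 9.04 to 20.4 CPM per kilobase in oocytes and overlapped with 15.5 to 36.7 in hippocampus. Ctsd, the main aspartic protease of lysosomes, stood at 7.58 to 31.2 in oocytes, against 155 to 241 in hippocampus. Of the annotated exon length of Ctsd, 31.5% is shared with another gene on the same strand, so its counts may hold reads of both or lack reads set aside as ambiguous. The lysosomal membrane genes summed to 27.1 to 317 CPM per kilobase in oocytes (median 227) and 206 to 263 in hippocampus (median 223), and here the tissues overlapped.

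The 5 ATG8 genes encode the small ubiquitin-like proteins that are coupled to lipid on the autophagosome membrane. In oocytes the family consisted mainly of Map1lc3b and Gabarapl2. Map1lc3b made up 39.8% to 56.7% of the summed CPM per kilobase of the family in oocytes (median 43.5%), against 5.71% to 7.2% in hippocampus (median 6.4%). Gabarapl2 made up 18.6% to 48.0% in oocytes (at least 28.4% without rapamycin oocyte 1), against 11.7% to 13.6% in hippocampus. Gabarapl1 was the main family member in hippocampus, with 0% to 5.97% of the family in oocytes (at most 3.0% without rapamycin oocyte 1), against 43.5% to 54.0% in hippocampus. Of its sequence, 79.5% of 75-base words occur in no other transcript, and 90.5% for Gabarapl2, so multi-mapped reads may be missing from both. The family as a whole summed to 25.3 to 74.3 CPM per kilobase in oocytes, against 533 to 930 in hippocampus.

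**Figure D2:**
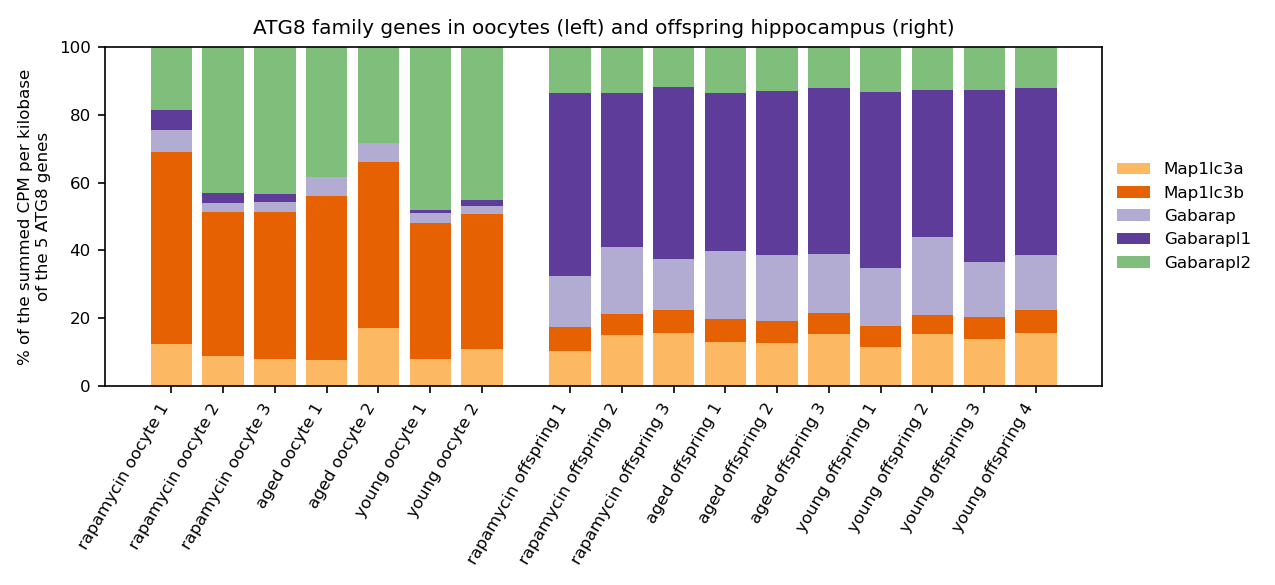
Share of each ATG8 gene in the summed CPM per kilobase of the family, as stacked bars to 100% for each of the 17 libraries. Map1lc3b (orange) and Gabarapl2 (green) fill most of the oocyte bars, and Gabarapl1 (dark purple) takes 43.5% to 54.0% of each hippocampus bar.

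Both MiT transcription factors bind E-box sites in lysosomal promoters. Tfeb had 0 counts in all 7 oocyte libraries and stood at 1.67 to 3.1 CPM per kilobase in hippocampus, the lowest of the 48 there. Tfe3 stood at 6.16 to 73.7 in oocytes and overlapped with 9.49 to 14.2 in hippocampus. The factors are known to act through the 10-base CLEAR element, searched here in its palindromic form around the core CACGTG, and both motifs read the same on either strand, so every full element also holds the core. RefSeq start sites of GRCm38.p6 gave promoters, from 250 bases before to 50 after the start, for 40 of the 48 members, with 46 promoters in all. The core was in at least 1 promoter of 10 of the 40 members (25.0%), against 8.09% of 27025 genes, and the full 10-base element was in 0 of the 40, against 0.37% of genes. Counted by promoter, the core was in 21.7% of member promoters and 7.15% of all 32851. Lysosomal genes held it in 6 of 15 cases and autophagy genes in 4 of 25.

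Lamp1, a major protein of the lysosomal membrane, had 4 copies of the core within 61 bases of its start. Atg3, the enzyme that transfers ATG8 proteins to lipid, and Mcoln1 had 2 copies each, and Atg5, Ctsd and the glycogen-degrading Gaa had 1 copy within the 150 bases before the start. Those 150 bases of these 6 genes are shown to place the core, in capitals, against the start site, which follows the last base. They lie at chr8:13159011-13159160 (Lamp1, plus strand), chr8:3500369-3500518 (Mcoln1, plus), chr16:45158679-45158828 (Atg3, plus), chr10:44268189-44268338 (Atg5, plus), chr7:142387828-142387977 (Ctsd, minus) and chr11:119267813-119267962 (Gaa, plus) of GRCm38.p6.
Lamp1: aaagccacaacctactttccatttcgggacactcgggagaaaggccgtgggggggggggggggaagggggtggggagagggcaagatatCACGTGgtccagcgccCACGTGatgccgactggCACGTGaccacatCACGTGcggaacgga
Mcoln1: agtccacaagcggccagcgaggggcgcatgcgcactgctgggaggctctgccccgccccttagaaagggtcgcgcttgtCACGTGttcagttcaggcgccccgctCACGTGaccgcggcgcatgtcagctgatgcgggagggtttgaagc
Atg3: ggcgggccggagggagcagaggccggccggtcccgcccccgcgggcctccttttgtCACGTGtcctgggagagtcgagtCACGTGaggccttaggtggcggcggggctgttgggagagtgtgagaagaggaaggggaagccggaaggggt
Atg5: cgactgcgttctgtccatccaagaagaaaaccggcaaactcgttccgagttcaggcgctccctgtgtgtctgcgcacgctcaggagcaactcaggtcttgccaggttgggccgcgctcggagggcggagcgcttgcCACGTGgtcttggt
Ctsd: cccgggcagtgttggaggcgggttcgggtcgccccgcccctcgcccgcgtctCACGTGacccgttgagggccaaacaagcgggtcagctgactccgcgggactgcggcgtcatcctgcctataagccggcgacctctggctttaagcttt
Gaa: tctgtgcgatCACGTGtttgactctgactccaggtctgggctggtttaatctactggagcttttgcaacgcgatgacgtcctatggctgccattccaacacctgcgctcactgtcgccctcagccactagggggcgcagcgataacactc

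Atg14, Atg7, Ctsa and Ctsl also held the core in the 300-base window. Members with the core included genes high in oocytes, such as Atg5 and Mcoln1, and genes far below hippocampus, such as Gaa and Ctsa. A match is a description of the letters only.

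The first comparison within oocytes set aged against young females. No member passed the threshold, an adjusted p under 0.05 in the edgeR quasi-likelihood test over 10083 genes, in which 27 genes (0.268%) were called. Of the 48 members, 40 passed the filter on low counts; Gabarapl1, Tfeb, Ctsa, Ctsz, Hexa, Gusb, Neu1 and Lipa did not. The median log2 fold change was 0.36 over the 40 members and -0.012 over all genes tested, with 26 members above 0 and 14 below. It was 0.20 without aged oocyte 1 and 0.25 without young oocyte 2. At an unadjusted p under 0.05 there were 3 members, against 11.5% of genes, and DESeq2 also called 0, against 2.86% of genes. Without rapamycin oocyte 1, which belongs to neither group but enters the shared estimate of the spread, the test called 5 of 41 members (12.2%, against 11.4% of 10220 genes), all higher in aged oocytes. With both directions pooled, the share of members called was thus near that of all genes. By direction, 12.2% of members were called higher, against 6.27% of genes, and 0 lower, against 5.16%. Whether members differ from other genes in direction was not tested.

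The 5 genes were Pik3r4, Atg14, Tfe3, Atg9a and Ctsd. Pik3r4 stood at 336 and 242 CPM in aged oocytes, against 85.9 and 103 CPM in young oocytes. Its log2 fold change was 1.61 ± 0.98 (standard error, as after every log2 fold change below; edgeR adjusted p = 0.551) with all 7 libraries and 1.60 ± 0.27 (adjusted p = 0.00993) without rapamycin oocyte 1. Across all alternatives its adjusted p ran from 0.00892 to 1. Both aged libraries lay above both young ones.

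Atg14, the partner of Pik3r4 in the same complex, stood at 174 and 140 CPM in aged oocytes, against 73.7 and 82.1 CPM in young oocytes. Its edgeR log2 fold change was 1.01 ± 0.47 (adjusted p = 0.455), and 1.00 ± 0.25 (adjusted p = 0.0355) without rapamycin oocyte 1, with a range of 0.0331 to 1 over the alternatives. The other subunits did not share this pattern. Becn1 overlapped between aged (115 and 152 CPM) and young oocytes (119 and 103 CPM), and so did the catalytic subunit Pik3c3 (17.2 and 8.99 against 16.1 and 17.7 CPM). A stretch of 29.6% of the Becn1 exons is overlapped by a gene on the other strand, and the strand setting of the counting is not given in the sources used here.

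Tfe3 stood at 267 and 77.3 CPM in aged oocytes, against 40.3 and 39.7 CPM in young oocytes, so the aged libraries differed more from each other than the lower one did from the young. Its edgeR log2 fold change was 2.10 ± 0.77 (adjusted p = 0.364), and 2.08 ± 0.48 (adjusted p = 0.0268; 0.0268 to 1 over the alternatives) without rapamycin oocyte 1. Atg9a, the membrane protein of the vesicles that seed autophagosomes, stood at 24.0 and 6.97 CPM in aged oocytes, against 3.05 and 2.68 CPM in young oocytes. Its edgeR values were 2.43 ± 1.13 (adjusted p = 0.454) and, without that library, 2.41 ± 0.63 (adjusted p = 0.04; 0.0378 to 1 over the alternatives). Of its exon length, 42.6% is overlapped by other genes.

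Ctsd stood at 66.3 and 48.3 CPM in aged oocytes, against 24.6 and 29.7 CPM in young oocytes, and the groups did not overlap. Its edgeR log2 fold change was 1.08 ± 0.49 (adjusted p = 0.448), and 1.06 ± 0.30 (adjusted p = 0.0491; 0.0491 to 1 over the alternatives) without rapamycin oocyte 1. Among the members of smallest unadjusted p, Wipi2, a PI3P-binding protein that recruits ATG16L1, stood at 15.6 and 11.2 CPM in aged oocytes, against 4.58 and 5.93 CPM in young oocytes. It was not called in any fit listed here (edgeR 1.34 ± 0.57, adjusted p = 0.432). The cargo receptors Nbr1 (248 and 147 against 114 and 112 CPM) and Sqstm1 (41.8 and 26.5 against 16.6 and 18.6 CPM) were likewise above young oocytes in both aged libraries without passing the test.

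With 2 libraries in each group, many genes separate by their values alone. In aged oocytes, 19 of the 40 members lay wholly above young oocytes, against 29.6% of genes, and 10 wholly below, against 31.7%. The 10 below were Atg10, Atg101, Atg12, Atg5, Ctsb, Ctsl, Gabarapl2, Npc1, Optn and Ulk2. Atg10, the E2-like enzyme that joins ATG12 to ATG5, stood at 4.85 and 5.17 CPM in aged oocytes, against 11.8 and 10.2 CPM in young oocytes (edgeR -1.13 ± 0.49, adjusted p = 0.434). Atg5 stood at 288 and 433 CPM in aged oocytes, against 633 and 526 CPM in young oocytes (edgeR -0.69 ± 0.50, adjusted p = 0.625). By role, 4 of the 5 lipid transfer and PI3P binding genes and 3 of the 7 conjugation genes were above 0.

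Ctsl, a cysteine protease, rested on few reads, and 28.2% of its exon length is overlapped by other genes. It had 2 counts over both aged libraries and 89 over both young ones, at 0.539 and 0 CPM in aged oocytes, against 17.4 and 1.05 CPM in young oocytes. The ratio of summed counts per depth was 27.5-fold lower in aged oocytes, with a 95% counting interval of 7.40 to 231 that leaves out the spread between libraries. It comes almost wholly from young oocyte 1. The test without a filter on low counts called it (edgeR adjusted p = 0.0415), while the filtered test did not (adjusted p = 0.365), and adjusted p ran from 0.0415 to 1 over the alternatives. Gabarapl1 had 0 counts in both aged libraries and was at least 1.86-fold lower in aged than in young oocytes, and Neu1 at least 3.71-fold lower, each against a floor of 3 counts over the group and with counting error only.

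**Figure D3:**
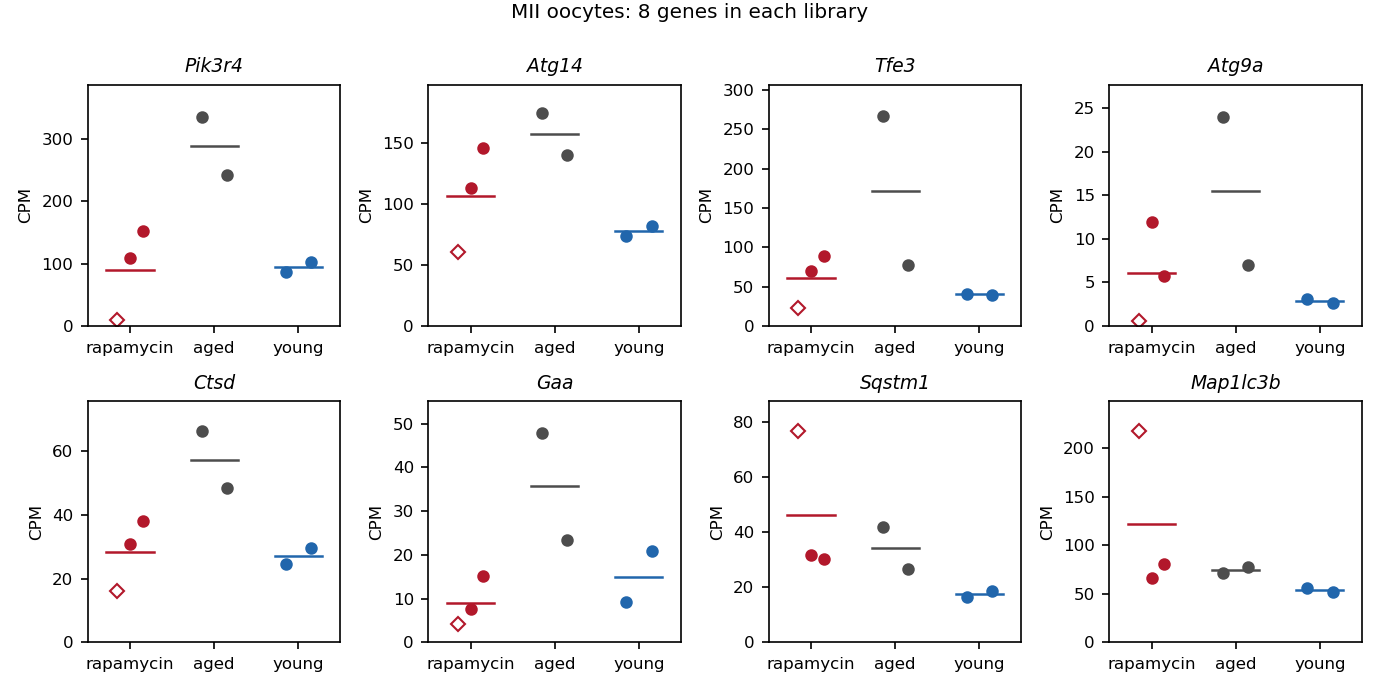
CPM of 8 genes in each oocyte library; points are libraries of rapamycin (red, n = 3), aged (grey, n = 2) and young (blue, n = 2) oocytes, lines are group means, and the open diamond is rapamycin oocyte 1. Pik3r4, Atg14 and Ctsd are above the young libraries in both aged libraries, and the open diamond is the lowest point for Pik3r4, Atg14, Tfe3, Atg9a, Ctsd and Gaa but the highest for Sqstm1 and Map1lc3b.

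The next comparison asked what rapamycin treatment of aged females did, with the same aged libraries. No member was called, and 0 of 10083 genes (0.0%) were called in all by edgeR; 3 members had an unadjusted p under 0.05, against 5.98% of genes, and DESeq2 called 0 members, against 0.109% of genes, with a smallest adjusted p of 0.11. The median log2 fold change was -0.48 over the 40 members and 0.014 over all genes tested, with 13 above 0 and 27 below. It was -0.20 without aged oocyte 1. Without rapamycin oocyte 1 the median was -0.44, with 10 of 41 members above 0 and 31 below, and again 0 members called while 6 genes (0.0587%) were. Both comparisons use the same aged libraries, so a high value in those shows as a positive value in the first and a negative one here.

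Gaa, the acid alpha-glucosidase that degrades glycogen in lysosomes, stood at 4.30, 7.74 and 15.1 CPM in rapamycin oocytes, against 48.0 and 23.4 CPM in aged oocytes. All 3 rapamycin libraries lay below both aged ones, with an edgeR log2 fold change of -1.96 ± 0.64 (adjusted p = 0.73; -1.61 ± 0.52 without rapamycin oocyte 1, adjusted p = 0.226, and 0.226 to 1 over the alternatives). Ctsd stood at 16.1, 30.7 and 38.0 CPM in rapamycin oocytes, against 66.3 and 48.3 CPM in aged oocytes (edgeR -1.02 ± 0.44, adjusted p = 0.73; -0.72 ± 0.30 without rapamycin oocyte 1). Pik3r4 stood at 9.41, 109 and 152 CPM in rapamycin oocytes, against 336 and 242 CPM in aged oocytes (edgeR -1.68 ± 0.86, adjusted p = 0.73; -1.13 ± 0.27 without rapamycin oocyte 1). Neither group of libraries overlapped with the other for these 3 genes, and none passed the test.

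Atg2a, which moves lipid into the growing membrane, stood at 1.08, 2.23 and 5.73 CPM in rapamycin oocytes, against 13.2 and 7.42 CPM in aged oocytes (edgeR -1.73 ± 0.75, adjusted p = 0.73; -1.34 ± 0.60 without rapamycin oocyte 1). Tfe3 overlapped between the groups, at 22.3, 69.5 and 89.5 CPM in rapamycin oocytes, against 267 and 77.3 CPM in aged oocytes (edgeR -1.51 ± 0.67, adjusted p = 0.73; -1.08 ± 0.46 without rapamycin oocyte 1). In all, 13 of the 40 members lay wholly below aged oocytes in all 3 rapamycin libraries, against 13.9% of genes, and 3 wholly above (Atg10, Ctsl and Gabarapl2), against 11.7%. Without rapamycin oocyte 1 the counts were 18 below, against 22.9% of genes, and 5 above, against 23.0%. Those below with all libraries included Becn1, Wipi2, Mcoln1, Npc1 and Lamp2.

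Ctsl, Gabarapl1 and Optn had higher mean levels in rapamycin oocytes. Ctsl stood at 26.1, 4.47 and 5.42 CPM in rapamycin oocytes, against 0.539 and 0 CPM in aged oocytes, a 38.9-fold higher ratio of summed counts per depth in rapamycin oocytes (95% counting interval 10.6 to 324). Without rapamycin oocyte 1 the ratio was 20.2 (5.37 to 170). Ctsl did not pass the test (edgeR 5.44 ± 1.80, adjusted p = 0.73, and 4.22 ± 1.52, adjusted p = 0.246, without that library). Gabarapl1 stood at 8.06, 1.64 and 1.51 CPM in rapamycin oocytes, against 0 in both aged libraries, at least 8.12-fold higher over the group, and at least 4.28-fold without rapamycin oocyte 1. Optn, a cargo receptor for mitochondria and bacteria, stood at 3.49, 24.1 and 16.6 CPM in rapamycin oocytes, against 4.85 and 8.32 CPM in aged oocytes. Its groups overlapped through rapamycin oocyte 1 alone (edgeR 1.17 ± 0.76, adjusted p = 0.733; 1.63 ± 0.41, adjusted p = 0.226, without that library).

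Rapamycin oocytes set against young oocytes, with the same libraries again, gave 0 members called and 43 of 10083 genes (0.426%). The median log2 fold change was -0.12 over the 40 members and 0.017 over all genes tested, with 18 above 0 and 22 below, and 1 member had an unadjusted p under 0.05, against 8.91% of genes. DESeq2 called 0 members, against 2.41% of genes, and edgeR without rapamycin oocyte 1 also 0, against 2.97%. Sqstm1, the cargo receptor p62, stood at 76.6, 31.7 and 30.1 CPM in rapamycin oocytes, against 16.6 and 18.6 CPM in young oocytes. The edgeR log2 fold change was 1.39 ± 0.53 (adjusted p = 0.526), and 0.82 ± 0.32 (adjusted p = 0.245) without rapamycin oocyte 1. Of its exons, 20.5% are overlapped by a gene on the other strand. Map1lc3b, which encodes LC3B, stood at 218, 66.0 and 80.9 CPM in rapamycin oocytes, against 56.4 and 52.2 CPM in young oocytes (edgeR 1.16 ± 0.56, adjusted p = 0.588; 0.45 ± 0.26 without rapamycin oocyte 1). For both, all 3 rapamycin libraries lay above both young ones, and the largest value came from rapamycin oocyte 1.

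Gabarap had 6.45, 1.04 and 1.36 CPM in rapamycin oocytes, against 1.09 and 0.814 CPM in young oocytes, and overlapped. Atg12, the ubiquitin-like partner of ATG5, stood at 18.8, 112 and 110 CPM in rapamycin oocytes, against 165 and 151 CPM in young oocytes (edgeR -0.97 ± 0.65, adjusted p = 0.677; -0.50 ± 0.22 without rapamycin oocyte 1). Atg3 stood at 50.8, 34.4 and 41.0 CPM, against 50.1 and 69.3 CPM in young oocytes, and overlapped. In all, 3 of 40 members lay wholly above young oocytes (Map1lc3b, Nbr1 and Sqstm1), against 15.5% of genes, and 7 wholly below, against 17.8%. The counts were 11 and 14 without rapamycin oocyte 1, against 25.1% and 25.6% of genes.

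The weight of rapamycin oocyte 1 in these results can be read from the members directly. It lay below the range of the other 6 oocyte libraries for 21 of the 48 members and above it for 11, against 31.6% and 29.1% of 13196 genes with at least 10 counts. Below were Lamp1 (21.2 CPM, against 185 to 317), Npc1 (9.41 CPM, against 113 to 261) and Atg16l1 (25.3 CPM, against 120 to 367). Above were Map1lc3b (218 CPM, against 52.2 to 80.9), Gabarapl1 (8.06 CPM, against at most 1.64) and Atg101 (48.9 CPM, against 12.7 to 20.9). Its ribosomal protein list stood at 1.12 on the log2 scale, against -1.01 to 0.18 in the others. The aged libraries were the lowest, at -1.01 and -0.41, against -0.1 to 0.18 in the remaining ones. The mean log2 level of the tested members, centred on all oocyte libraries, was 0.47 and 0.13 in aged oocytes and -0.67 in rapamycin oocyte 1. In the remaining libraries it was -0.07 to 0.1. What part these differences in composition have in the member values was not tested.

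Further genes of the pathway were read from the same fits. The main fit called 0 of 22 other autophagy genes, 0 of 19 other hydrolases and activators, 0 of 13 other lysosomal membrane genes and 0 of 16 subunits of the vacuolar ATPase in each of the 3 oocyte comparisons. Between aged and young oocytes without rapamycin oocyte 1, edgeR called 3 higher and 2 lower of 23 other autophagy genes, 4 higher and 2 lower of 20 hydrolases and activators, 0 higher and 1 lower of 13 membrane genes and 1 higher and 2 lower of 16 ATPase subunits, in a fit that called 6.27% of all genes higher and 5.16% lower. Calcoco1, an autophagy receptor, rose by 2.44 ± 0.47 on the log2 scale (adjusted p = 0.016) and Ambra1, a regulator of the Beclin 1 complex, by 1.65 ± 0.37 (adjusted p = 0.0244) in that edgeR fit. The lysosomal sulfatase Arsb fell by 2.09 ± 0.34 (adjusted p = 0.00855) and the proton pump subunit Atp6v1d fell by 2.37 ± 0.46 (adjusted p = 0.0161). With DESeq2 and all 7 libraries, Calcoco1 and Ambra1 were called as well between aged and young oocytes. Calls of the edgeR fit without rapamycin oocyte 1 thus went both ways within each list except the membrane genes, where the single call was Cd63. Between rapamycin and aged oocytes, DESeq2 called 1 of 13 other membrane genes, Cd63, against 0.109% of all genes. Cd63 was higher in rapamycin oocytes by 7.09 ± 1.68 (DESeq2 adjusted p = 0.0264). The edgeR value was 8.04 ± 1.49 (adjusted p = 0.73), and 7.48 ± 1.37 (adjusted p = 0.223) without rapamycin oocyte 1. Counts per library and a floor are not given here for Cd63, so the size of its fold is uncertain.

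In hippocampus all 48 members had at least 10 counts in every library and all were tested. None was called in any of the 3 comparisons, by edgeR or DESeq2. Over 14877 genes, edgeR called 7 (0.0471%) for aged against young offspring, 0 (0.0%) for rapamycin against aged offspring and 8 (0.0538%) for rapamycin against young offspring (4 with the replicate number as a block, with 0 members called), and 1 member in each had an unadjusted p under 0.05, against 3.51%, 4.52% and 3.63% of genes. DESeq2 called 0.35%, 0.0874% and 0.242% of genes. The median log2 fold changes of members were 0.06, -0.03 and 0.00 in that order, beside -0.011, 0.019 and 0.007 over all genes. Standard errors of members had a median of 0.16 on the log2 scale in each comparison. In oocytes it was 0.64 to 0.70, and 0.35 without rapamycin oocyte 1, so hippocampus bounds member differences more tightly. The 3 comparisons share their groups in pairs.

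Lipa, the acid lipase that frees cholesterol and fatty acids in lysosomes, had the smallest unadjusted p of the members. It stood at 26.2, 22.4 and 21.5 CPM in rapamycin offspring, against 14.8, 14.5 and 15.9 CPM in aged offspring. The groups did not overlap, and the edgeR log2 fold change was 0.63 ± 0.15 (unadjusted p = 0.00172, adjusted p = 0.796), with adjusted p from 0.0804 to 1 over the alternatives, the lowest by DESeq2. Young offspring stood at 22.4, 16.1, 18.6 and 20.2 CPM, and aged offspring lay below all 4 of them (edgeR -0.36 ± 0.14, adjusted p = 0.99). Rapamycin and young offspring overlapped (edgeR 0.28 ± 0.14, adjusted p = 0.999). Lipa was 1 of 3 members wholly above aged offspring in the rapamycin group, with Atg2a and Ulk1, against 5.01% of genes, and Lamp2 was the 1 wholly below, against 4.88%.

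Ulk1, the kinase that starts autophagy, stood at 99.8 to 101 CPM in the 3 rapamycin offspring, against 72.1, 85.7 and 99.1 CPM in aged offspring (edgeR 0.23 ± 0.14, adjusted p = 0.796). Young offspring stood at 85.0, 70.2, 87.9 and 85.7 CPM, so the rapamycin libraries lay above all others, the nearest being the aged library at 99.1 CPM. Against young offspring the edgeR log2 fold change of Ulk1 was 0.29 ± 0.13 (adjusted p = 0.999). Its paralogue Ulk2 stood at 137, 153 and 142 CPM in rapamycin offspring, against 127, 134, 128 and 133 CPM in young offspring (edgeR 0.14 ± 0.10, adjusted p = 0.999). Atg13, their regulatory subunit, was also wholly above young offspring, at 109, 109 and 103 CPM in rapamycin offspring, against 100, 83.2, 96.1 and 102 CPM. These 3 of 48 members were those wholly above young offspring, against 2.93% of genes, and Ctsa was wholly below, against 2.1%.

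Npc1 stood at 68.7, 59.4 and 71.8 CPM in rapamycin offspring and at 68.0, 61.5 and 61.2 CPM in aged offspring, against 41.6, 45.9, 60.9 and 57.1 CPM in young offspring. Aged offspring lay wholly above young offspring (edgeR 0.31 ± 0.15, adjusted p = 0.99), while rapamycin offspring overlapped with young at 59.4 CPM (edgeR 0.38 ± 0.15, adjusted p = 0.999). Npc1 was the 1 member wholly above in aged against young offspring, against 2.92% of genes, and Lipa the 1 wholly below, against 2.52%.

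Atg101, the ULK complex subunit that stabilises ATG13, stood at 31.0, 61.1 and 33.6 CPM in rapamycin offspring and at 67.2, 51.9 and 58.6 CPM in aged offspring, against 43.1, 57.8, 34.9 and 45.1 CPM in young offspring. All 3 groups overlapped, and the widest spread was within the rapamycin group (edgeR -0.50 ± 0.26 for rapamycin against aged and 0.39 ± 0.24 for aged against young, adjusted p = 0.796 and 0.99). Gaa stood at 469, 386 and 361 CPM in rapamycin offspring and at 253, 309 and 397 CPM in aged offspring, against 431, 307, 374 and 421 CPM in young offspring. It too overlapped among all 3 groups (edgeR 0.34 ± 0.20 for rapamycin against aged, adjusted p = 0.796). For aged against young offspring, log2 fold changes ran over the alternatives from -0.45 to -0.12 for Gaa and from -0.31 to -0.11 for Atg2a. Atg2a stood at 49 to 56 CPM in rapamycin, 38.1 to 46.5 CPM in aged and 37.7 to 55 CPM in young offspring. Atg14 stood at 19.9 to 24.3 CPM in rapamycin offspring and overlapped with 17.1 to 20.8 CPM in young offspring. Of the other pathway lists, edgeR called 0 of 30 autophagy genes, 0 of 34 hydrolases and activators, 0 of 18 membrane genes and 0 of 17 ATPase subunits in each comparison, and DESeq2 also 0.

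**Figure D4:**
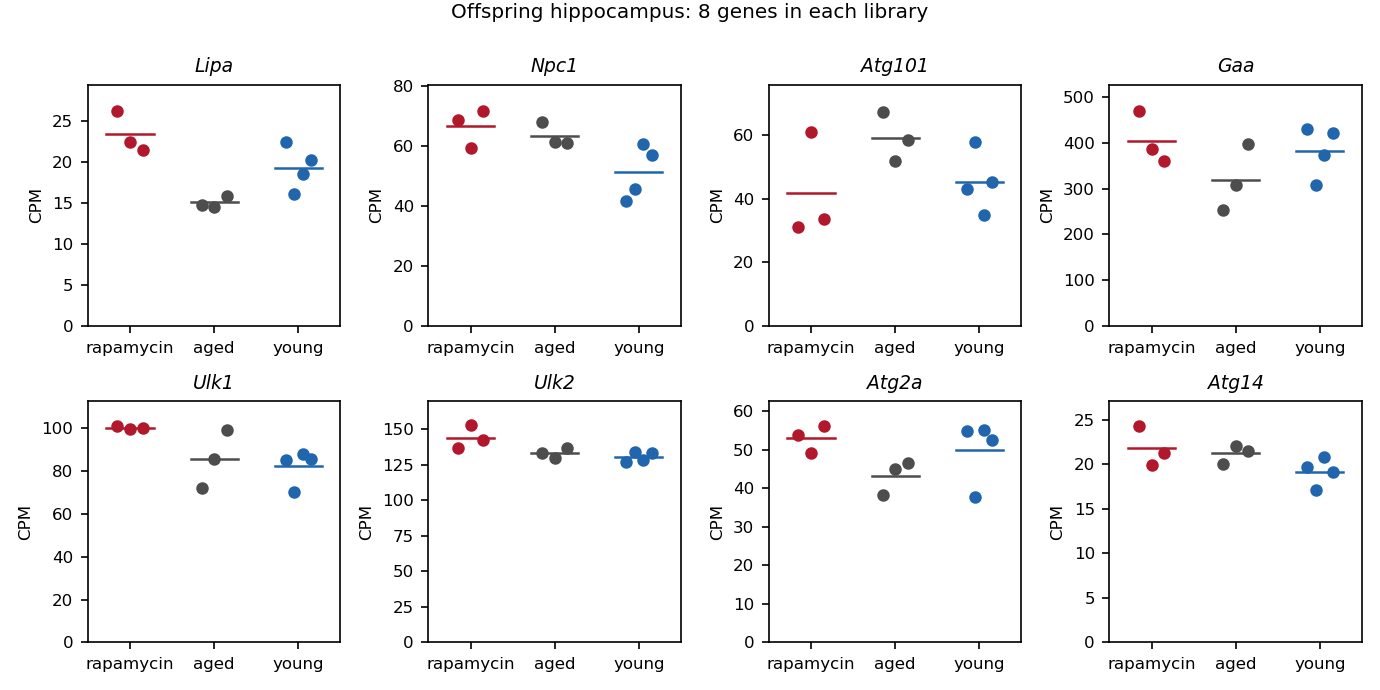
CPM of 8 genes in each hippocampus library; points are libraries of rapamycin (red, n = 3), aged (grey, n = 3) and young (blue, n = 4) offspring, and lines are group means. Lipa is lowest in the 3 aged libraries (14.5 to 15.9 CPM), while Atg101 and Gaa spread as widely within groups as between them.

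Many members varied among hippocampus libraries, within groups too, together with the level of the cytosolic ribosomal protein list, the mean log2 CPM of 71 genes, which ranged from -0.92 in rapamycin offspring 1 to 0.67 in young offspring 2. Correlations were computed over the 10 libraries for 11256 genes with a mean of at least 100 counts or in the list of 48, with permutation p-values (100000 resamples, two-sided) adjusted over all of them. At an adjusted p under 0.05, 21 of 48 members (43.8%) correlated positively, against 26.2% of genes, and 9 (18.8%) negatively, against 24.9%. All 30 kept their sign without the 2 libraries farthest from the median, rapamycin offspring 1 and young offspring 2, and 29 of them kept an r of at least 0.6 in size, with Psap the exception. All 30 also kept their sign when the group means were removed. The 30 were chosen by their r over these same libraries, so keeping the sign is no independent check.

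The ATG8 proteins were all on the positive side. Gabarap stood at 108, 249 and 123 CPM in rapamycin offspring and at 208, 210 and 183 CPM in aged offspring, against 156, 283, 126 and 157 CPM in young offspring. Its r was 0.98 and rho 0.98 (permutation p = 1e-05, the smallest these permutations can give, and 4e-05), and r was 0.98 without the 2 farthest libraries. Gabarapl2 (r = 0.94), Map1lc3b (0.93), Gabarapl1 (0.92) and Map1lc3a (0.87) followed. Lamp1 had r = 0.96 and rho 0.96, Ctsz 0.95 and 0.95, Npc2 0.94 and 0.96, and Sqstm1 0.92 and 0.90.

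The 9 members on the negative side were Atg2a, Atg2b, Atg9a, Atg16l1, Pik3c3, Pik3r4, Nbr1, Mcoln1 and Psap. Atg2b, a lipid transfer protein, stood at 84.9, 44.9 and 77.3 CPM in rapamycin offspring and at 51.4, 52.3 and 61.0 CPM in aged offspring, against 64.3, 41.9, 73.8 and 63.7 CPM in young offspring. Its r was -0.98 and rho -0.99 (permutation p = 1e-05 for both). Atg16l1 (r = -0.96, rho = -0.94), Mcoln1 (r = -0.95, rho = -0.93), Pik3c3 (r = -0.91, rho = -0.90) and Pik3r4 (r = -0.90, rho = -0.89) followed. Across the 48 members, r with the list correlated at -0.50 with the log2 of exon length, a description across genes that share the 10 libraries.

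Libraries high on the ribosomal list were also high in oligodendrocyte and astrocyte markers. The 4 libraries at 0.37 or more on the list, 1 rapamycin, 2 aged and 1 young, held 7960 to 10300 CPM of that marker list, against 2800 to 4990 CPM in the other 6. Their astrocyte markers summed to 6080 to 7150 CPM, against 4660 to 5790 CPM, while neuronal markers overlapped at 11500 to 13300 CPM, against 13200 to 14100 CPM. Microglial markers overlapped at 447 to 734 CPM, against 317 to 479 CPM. Endothelial and mural markers leaned the other way, with overlap, at 108 to 160 CPM, against 129 to 301 CPM. Atg101, whose values spread widely within groups, had r = 0.93 and rho 0.88. Lipa and Npc1 were among members without a called relation (r = -0.62 and -0.28, adjusted permutation p = 0.0982 and 0.516). What part cell composition or RNA quality has in these relations was not tested. With the list as a covariate in the fit, 0 members were called in each hippocampus comparison. The shares of all genes called in that fit were 0.0739% (aged against young), 0% (rapamycin against aged) and 0.108% (rapamycin against young).

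**Figure D5:**
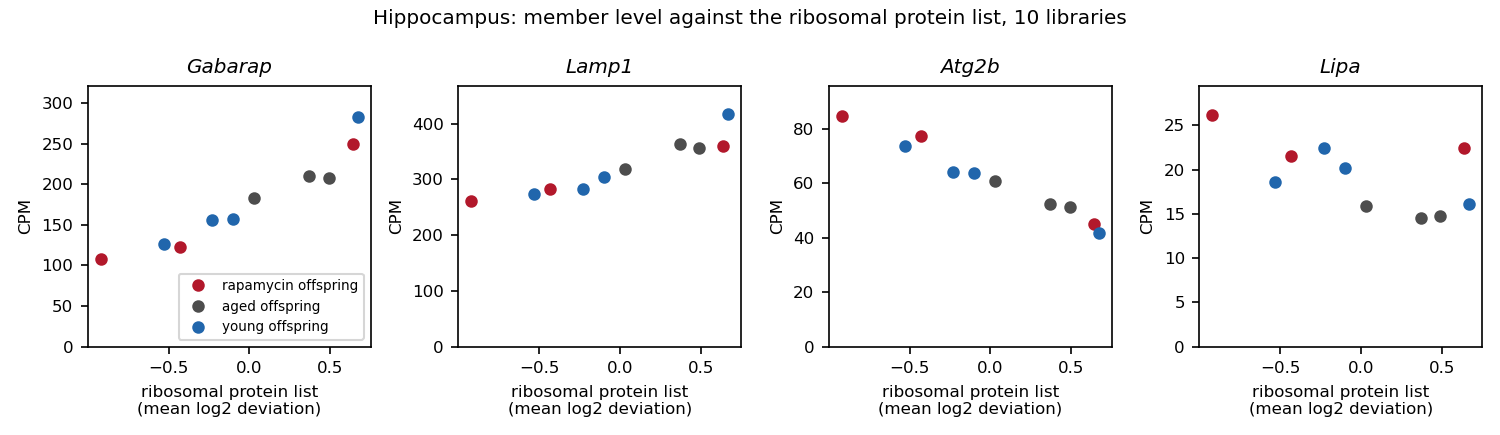
CPM of 4 genes in the 10 hippocampus libraries against the mean log2 level of the ribosomal protein list, centred on all 10; colours mark rapamycin (red), aged (grey) and young (blue) offspring. Gabarap and Lamp1 climb along the axis and Atg2b declines in libraries of every group, while the 3 aged libraries are the lowest for Lipa.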

How the data were processed

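Poly(A) RNA was sequenced from 7 pools of MII oocytes and 10 hippocampi. The files hold read counts per gene as the authors deposited them, not normalized. Per the submitters' processing notes, the tools were STAR and HTSeq and the build mm10, and neither a version, an annotation nor a strand setting is stated. The 5 rows that name no gene were left out of library sizes; ambiguous reads among them came to 1.26% to 1.92% of the total of a file and reads without a unique position to 5.09% to 15.9%.

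Each tissue was fitted alone with its 3 groups in edgeR 4.0.16 (R 4.3.3; filterByExpr, TMM, quasi-likelihood F-test), with p-values adjusted by Benjamini-Hochberg across every tested gene (threshold 0.05). The standard error of an edgeR log2 fold change was derived, as its absolute value divided by the square root of the F statistic. That of a DESeq2 value came from its model. Replicates varied by 49.5% (oocytes) and 23.5% (hippocampus) as a biological coefficient of variation, and oocytes by 28.1% without rapamycin oocyte 1. DESeq2 1.42.0, other size factors and filters, fits of only the 2 groups compared, a replicate block and leaving out each library were alternatives. The code was tested on simulated counts. Exon lengths and overlaps came from the basic set of GENCODE release M21 on GRCm38, the assembly of mm10, which may differ from the authors' annotation.

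The 48 members, their roles and the other lists were chosen with earlier results of these data known. In each comparison the text names the members called, the 5 of smallest unadjusted p where fewer pass, and those called without rapamycin oocyte 1; other members are named for their level per library. Libraries of a group were compared, and no pair agreed within counting noise (lowest chi-square over degrees of freedom 12.3). Labels give no meaning to replicate numbers; only between rapamycin and young offspring did all 3 same-numbered pairs deviate together (r = 0.23, 0.68 and 0.39), so that comparison is also given with the number as a block. Reads are not independent molecules, so floors and intervals cover counting error only.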

Additional observations from a re-analysis of the deposited data

Results flagged for a closer look

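Among the 4 young offspring, 1 library lay apart from the other 3 for 5 of the 48 members, by a gap, relative to the range of the group, above Dixon's 95% critical value, which chance gives in about 1 of 20 genes. Only the 48 members were examined, so no share over all genes stands beside this count. The library apart was young offspring 2 in each case. Its level was 70.2 CPM for Ulk1, 37.7 CPM for Atg2a and 41.1 CPM for Mcoln1, the lowest of the group, and 37.3 CPM for Atg7 and 12.4 CPM for Tfeb, the highest. This library also had the highest level of the ribosomal protein list of all 10 hippocampus libraries (0.67 on the log2 scale), 10200 CPM of oligodendrocyte markers, against 3260 to 4170 CPM in the other 3, and 734 CPM of microglial markers, against 328 to 479 CPM. What part these have in the 5 values was not tested. No member was called in hippocampus with or without this library. Without it the shares of all genes called were 0.101% (aged against young), 0% (rapamycin against aged) and 0.0472% (rapamycin against young).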

How the results depend on the processing

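Medians of members ran over the alternatives from 0.20 to 0.40, -0.65 to -0.20 and -0.25 to -0.03 in oocytes and from 0.01 to 0.09, -0.11 to 0.02 and -0.05 to 0.03 in hippocampus, for aged against young, rapamycin against aged and rapamycin against young, so both rapamycin comparisons in hippocampus took either sign. Members called between aged and young oocytes numbered 0, but 1 without a filter on low counts (Ctsl), 4 with only the 2 groups in the fit (Atg14, Atg9a, Pik3r4 and Tfe3; 12.5% of genes called) and 0 to 5 when each library was left out in turn, 5 without rapamycin oocyte 1. Genes called in that comparison numbered 27, against 288 by DESeq2, 167 without the filter, 1177 with only the 2 groups and 1168 without rapamycin oocyte 1. For rapamycin against young oocytes they numbered 43, against 243 by DESeq2, 179 without the filter, 14 with only the 2 groups and 0 to 304 with each library left out. In hippocampus, DESeq2 called 52, 13 and 36 genes, against 7, 0 and 8 by edgeR, for aged against young, rapamycin against aged and rapamycin against young offspring. The median for rapamycin against aged offspring ran from -0.11 to 0.02 with each library left out, lowest without rapamycin offspring 2. Members wholly above hippocampus in oocytes numbered 3, but 8 without rapamycin oocyte 1. With TMM over all 17 libraries they numbered 4 (8.33%, against 23.3% of genes). Those wholly below numbered 30, 32 and 28 in that order, the last 58.3%, against 46.7% of genes. TMM over all 17 libraries was chosen after seeing the data, as were the low-count folds without rapamycin oocyte 1. So were the alternatives on the ribosomal list, without the 2 farthest libraries and within groups. They gave 31 and 36 members with r of at least 0.6 in size, with no share over all genes computed. In the main setting, 34 members (70.8%) had such an r, against 60.5% of genes with a mean of at least 100 counts. Of 486 alternative values of named members, 0 reversed and 10 passed the threshold, all between aged and young oocytes. Named members were chosen by their p-values in these same libraries, so agreement in sign is no independent check. Deviations of same-numbered libraries correlated at -0.09 to 0.01 in oocytes. In hippocampus they correlated at 0.23 to 0.68 between rapamycin and young offspring and at -0.21 to 0.26 in pairs with aged offspring, while libraries of different number ranged from -0.64 to 0.58. With a replicate block, 0 members were called in each comparison, and genes called numbered 1, 0 and 0 in oocytes and 9, 0 and 4 in hippocampus. With 2 or 3 oocyte libraries a group, standard errors of members had a median of 0.64 to 0.70 on the log2 scale. Without rapamycin oocyte 1 the median was 0.35 in each comparison. With all 7 libraries, differences of 2 or more times the median standard error were also not called (Tfe3, 2.10 ± 0.77). Without rapamycin oocyte 1, Tfe3 was called (edgeR 2.08 ± 0.48, adjusted p = 0.0268).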
